A study of Mus musculus with 20 samples.

Results

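Oxidative phosphorylation subunits are the proteins of the 5 enzyme complexes of the inner mitochondrial membrane. They were followed at the RNA level across 4 cell populations sorted from the mouse mammary gland. Members were taken by gene symbol, with patterns for the Nduf, Sdh, Uqcr, Cox4 to Cox8 and Atp5 genes and for the protein-coding genes of the mitochondrial genome. Of the 46603 genes in the deposited table, 102 matched. Leaving out 6 (Ndufa4l2, Cox4i2 and symbols ending in -ps) gave 96 members, 83 nuclear and 13 mitochondrial, of which 93 had at least 1 count.

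All animals were FVB/N virgin females aged 6 to 8 weeks, and each library was made from 1000 sorted cells by SMART-Seq V4, a full-length method for low input that primes on polyA tails. The mammary repopulating units (MRU) lie in a gate of medium CD24 and high CD49f. Cells of this gate that carried both CD200 and its receptor CD200R1 are the CD200+CD200R1+ MRU, called double-positive MRU from here on. The remaining MRU were the cells of the same gate outside the double-positive population. The CD200+ non-MRU lay outside the MRU gate and were CD200 positive and CD200R1 negative, and the CD200R1+ non-MRU lay outside it and were CD200 negative and CD200R1 positive. Each population was sorted from the same 5 mice, numbered 2 to 6, which gave 20 libraries, and the CD200R1+ non-MRU library of mouse 4 took about 10% of its cells from mouse 3 according to its label. The comparisons of double-positive MRU with the other populations share the double-positive libraries.

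Electrons from NADH enter at complex I and those from succinate at complex II. They pass through complex III and cytochrome c to oxygen at complex IV, and the proton gradient built on the way drives ATP synthesis at complex V. The mitochondrial genome encodes core subunits of complexes I, III, IV and V, the nucleus encodes the rest, and every complex II subunit (the Sdh genes) is nuclear. Many nuclear subunit genes are known to be bound by NRF1, by the ETS factor GABP and by YY1, while mitochondrial genes are transcribed as long precursors that are then cut.

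Library totals ran from 10853587 to 13862963 counts, and 17236 genes passed the filter on low counts. The libraries are pools, in which fewer cells of a type and less RNA per cell cannot be told apart. All libraries are labelled epithelial. The summed level of 6 fibroblast markers was 899 to 1366 CPM (counts scaled to library size by TMM) in double-positive MRU, 593 to 1115 CPM in remaining MRU, 6305 to 16120 CPM in CD200+ non-MRU and 60280 to 84860 CPM in CD200R1+ non-MRU. The 6 basal epithelial markers summed to 11110 to 20540 CPM in double-positive MRU, 9559 to 15520 CPM in remaining MRU, 284 to 874 CPM in CD200+ non-MRU and 32.4 to 149 CPM in CD200R1+ non-MRU. The 6 luminal markers summed to 1319 to 2479 CPM in double-positive MRU, 977 to 2116 CPM in remaining MRU, 7592 to 10850 CPM in CD200+ non-MRU and 14.4 to 88.4 CPM in CD200R1+ non-MRU. The epithelial label of the CD200R1+ non-MRU is thus not borne out by these markers. Endothelial markers summed to 33.8 to 132 CPM in double-positive MRU, 1188 to 1624 CPM in remaining MRU, 88.2 to 160 CPM in CD200+ non-MRU and 24.7 to 118 CPM in CD200R1+ non-MRU. For pericyte markers the sums were 39.2 to 86.0, 480 to 705, 62.7 to 96.2 and 183 to 382.5 CPM in the same order. In CD200R1+ non-MRU most of that sum was Pdgfrb (mean 181 CPM). Macrophage markers summed to 1225 to 2500 CPM in double-positive MRU, 614 to 1050 CPM in remaining MRU, 22.4 to 53.0 CPM in CD200+ non-MRU and 458 to 1764 CPM in CD200R1+ non-MRU. Lymphocyte markers summed to 376 to 548 CPM in double-positive MRU, 209.7 to 354 CPM in remaining MRU, 1307 to 2629 CPM in CD200+ non-MRU and 200 to 369 CPM in CD200R1+ non-MRU, and all 6 were called between CD200+ non-MRU and either double-positive MRU or CD200R1+ non-MRU. Adipocyte markers summed to 152 to 364 CPM in double-positive MRU, 3982 to 5731 CPM in remaining MRU, 54.05 to 153.5 CPM in CD200+ non-MRU and 496 to 1739 CPM in CD200R1+ non-MRU. These adipocyte sums were almost all Fabp4, which averaged 4766 CPM in remaining MRU and 1253 CPM in CD200R1+ non-MRU. Adipoq averaged 4.40 CPM and 0.106 CPM there, and Plin1 0.934 CPM and 0.490 CPM. The part of this mixture in the results that follow was not tested.

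Several members share most of their sequence with other annotated genes, and 5 such mitochondrial genes had almost no counts. The runs printed here are the first 60 coding bases of mt-Co2, with almost no counts, and of mt-Cytb, with many (GRCm38, plus strand), and capitals mark nothing in them. The run of mt-Co2, a copper-binding core subunit of complex IV, also stands letter for letter in the annotated gene Gm28661 on chromosome 1. That of mt-Cytb, the cytochrome b of complex III, stands in no other annotated gene.
mt-Co2, chrM:7013-7072: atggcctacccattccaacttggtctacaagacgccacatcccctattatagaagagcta
mt-Cytb, chrM:14145-14204: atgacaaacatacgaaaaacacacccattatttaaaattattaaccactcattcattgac

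The mt-Co2 gene had 3 counts in the 20 libraries together, and mt-Cytb had 1667302. In mt-Co2, 100% of the runs of 50 bases were shared with an annotated gene elsewhere. For mt-Co3, mt-Atp6, mt-Nd4l and mt-Nd3 the share was 99.9%, 99.5%, 98.8% and 98%, and their total counts were 1, 0, 0 and 1. The leading copies of mt-Co2, mt-Co3, mt-Atp6, mt-Nd4l and mt-Nd3 had 0, 2, 3, 0 and 342 counts. For mt-Atp8 no annotated copy was found, and it was listed at 0 as well. Counts of 0 to 3 for these genes give no level for their RNA. Of the remaining 7 mitochondrial genes, mt-Nd4 shared 62.2% and mt-Co1 51.1% of its runs with copies, which leaves their counts uncertain. The gene mt-Nd6 lies on the strand opposite to the other 12, and the strand setting of the counting is not given in the sources used here.

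Nuclear members share sequence too, 11 of them with at least 20% of their runs in another gene. No source used here says how reads that match several genes were counted. Ndufs5, a complex I subunit, had 60 counts over the 20 libraries, while its copy BC002163 on chromosome 16 had 16244. Ndufa12, also of complex I, had 3953 counts and its copy Gm15920 had 20226. Atp5h, a stalk subunit of complex V, had 10813 and its copy Gm10250 had 28434. Atp5g2, Atp5l and Cox7c shared 87.4%, 68.5% and 53% of their runs. They had 251, 295 and 1341 counts and their leading copies 0, 748 and 26. Uqcrb and Cox5b had 30137 and 16023 counts and their leading copies 26 and 442, so the copies did not outcount every member. Members of neighbouring genes that overlap on the genome are also uncertain without a known strand setting, among them Ndufa13 with Tssk6 (27.1% of the transcript), Ndufb6 with Smim27 (34.1%), Cox5a with Gm26631 (29.2%) and Uqcrc2 with Pdzd9 (24.8%).

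**Figure D1:**
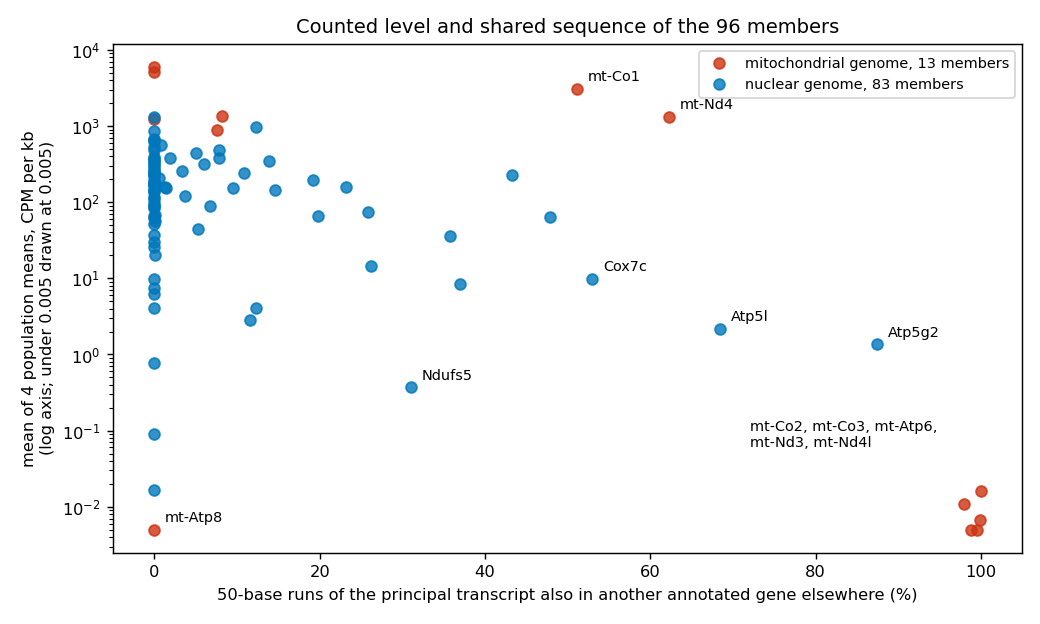
Counted level (vertical, mean of the 4 population means, CPM per kilobase of the principal transcript, log axis) of the 96 members against the share of their 50-base runs found in another annotated gene (horizontal, percent). The 5 mitochondrial genes at 98% or more lie at the bottom right, and Ndufs5, Atp5g2, Atp5l and Cox7c lie below most nuclear members.

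In total 79 of 83 nuclear and 7 of 13 mitochondrial members passed the filter and were tested. The untested nuclear members were Ndufs5, Cox7b2, Cox8b and Cox8c. Per kilobase of transcript, Cox4i1, the ubiquitous isoform of the largest nuclear subunit of complex IV, was the highest nuclear member, at 1578 CPM per kb in double-positive MRU, 1349 CPM per kb in remaining MRU, 1117 CPM per kb in CD200+ non-MRU and 1160 CPM per kb in CD200R1+ non-MRU. Cox8a, Cox6a1, Ndufa4 and Atp5e followed in double-positive MRU, at 1033, 993, 829 and 807 CPM per kb. The mitochondrial mt-Cytb and mt-Nd1, a core subunit of complex I, reached 6486 and 6161 CPM per kb in the same libraries.

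Promoters are shown for members on which the comparisons turn, read from RefSeq windows of 300 bases (GRCm38.p6), 250 before and 50 after the annotated start. Of 83 nuclear members, 68 had a window. Capitals mark matches, on either strand, to the letters GCGCA, any base and GCGC in a row for NRF1, CCGGAAG for ETS factors, AAGATGGC for YY1 or TCAAGGTCA for the receptor ERR. In Ndufa11 and Atp5k the NRF1 letters matched on both strands at the same bases, and apart from that no match overlapped another in these windows. Ndufa11 and Ndufs6 are accessory subunits of complex I and Atp5k is a subunit of complex V, and all rose in double-positive MRU over each non-MRU population. Sdha, the flavoprotein of complex II, was lower in double-positive MRU than in CD200+ non-MRU, and Cox6b2 is known as the testis isoform of a complex IV subunit.
Ndufa11, chr17:56717512-56717811, plus strand: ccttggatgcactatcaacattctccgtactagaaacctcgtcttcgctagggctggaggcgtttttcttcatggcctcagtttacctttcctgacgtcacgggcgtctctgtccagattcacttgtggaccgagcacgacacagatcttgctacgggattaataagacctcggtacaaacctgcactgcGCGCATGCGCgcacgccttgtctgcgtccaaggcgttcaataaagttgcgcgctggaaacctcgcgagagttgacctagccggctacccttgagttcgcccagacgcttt
Atp5k, chr5:108434350-108434649, minus strand: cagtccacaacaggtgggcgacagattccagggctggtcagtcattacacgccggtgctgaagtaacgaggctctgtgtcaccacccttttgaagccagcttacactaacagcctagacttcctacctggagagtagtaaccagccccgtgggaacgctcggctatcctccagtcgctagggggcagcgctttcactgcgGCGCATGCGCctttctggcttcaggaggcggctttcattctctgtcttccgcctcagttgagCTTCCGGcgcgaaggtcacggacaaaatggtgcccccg
Ndufs6, chr13:73328433-73328732, minus strand: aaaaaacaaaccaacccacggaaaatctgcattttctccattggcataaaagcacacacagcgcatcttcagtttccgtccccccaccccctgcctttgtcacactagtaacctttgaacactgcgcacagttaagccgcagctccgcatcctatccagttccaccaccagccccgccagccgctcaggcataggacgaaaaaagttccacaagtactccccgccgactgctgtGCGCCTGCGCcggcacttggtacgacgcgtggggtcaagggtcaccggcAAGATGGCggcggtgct
Sdha, chr13:74350191-74350490, minus strand: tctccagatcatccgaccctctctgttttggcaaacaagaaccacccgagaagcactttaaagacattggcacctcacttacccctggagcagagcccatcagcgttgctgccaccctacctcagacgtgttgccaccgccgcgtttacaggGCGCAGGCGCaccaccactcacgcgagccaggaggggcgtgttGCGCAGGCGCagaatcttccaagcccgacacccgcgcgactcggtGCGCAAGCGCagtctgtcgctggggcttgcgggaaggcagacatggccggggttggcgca
Cox6b2, chr7:4753045-4753344, minus strand: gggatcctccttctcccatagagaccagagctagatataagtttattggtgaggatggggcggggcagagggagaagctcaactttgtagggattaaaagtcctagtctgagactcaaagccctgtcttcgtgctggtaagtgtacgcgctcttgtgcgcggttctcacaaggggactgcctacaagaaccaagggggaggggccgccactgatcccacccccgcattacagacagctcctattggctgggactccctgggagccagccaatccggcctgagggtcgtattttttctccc

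The NRF1 letters began at -60 in Ndufa11, -50 in Atp5k and -16 in Ndufs6, counted from the start. The Sdha window held them at -98, -55 and -10. In Atp5k the ETS letters began at base 13 of the transcript, on the other strand, and in Ndufs6 the YY1 letters began at base 34. The Cox6b2 window held none of the 4 motifs, which says only that these letters were not in it. NRF1 letters stood in 24.3% of the 74 windows of members, 6 of which had more than 1 window, and in 4.6% of the 32851 windows of all genes. ETS letters stood in 21.6% and 8.86%, YY1 letters in 14.9% and 2.75%, and ERR letters in 2.7% and 0.423%. Of the 31 members with a window that were higher in double-positive MRU than in CD200+ non-MRU, 8 held NRF1 letters and 10 ETS letters. Of the 29 that did not pass in that comparison, 6 held NRF1 letters and 5 ETS letters. Of the 5 that were lower, 2 held NRF1 letters and 1 ETS letters. Of the 17 with a window that were higher in double-positive MRU than in CD200R1+ non-MRU, 7 (41.2%) held NRF1 letters and 7 ETS letters, and of the 46 that did not pass there 8 (17.4%) held each. Of the 2 with a window that were lower there, 1 held NRF1 letters and 1 ETS letters. These counts are a description and were not tested.

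Summed over the 83 nuclear members, the level in mice 2 to 6 was 15060, 15463, 16215, 14424 and 20981 CPM in double-positive MRU, 14038, 14782, 14771, 14753 and 16940 CPM in remaining MRU, 12620, 14509, 13721, 12228 and 15079 CPM in CD200+ non-MRU, and 11651, 14614, 13294, 12437 and 18028 CPM in CD200R1+ non-MRU. Mouse 6 had the highest sum in each population. The double-positive MRU exceeded both non-MRU populations in 5 of 5 mice, although the ranges overlapped.

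Summed over the 13 mitochondrial members, the level in mice 2 to 6 was 27272, 23295, 22590, 25190 and 26711 CPM in double-positive MRU, 23952, 22947, 26288, 23455 and 21064 CPM in remaining MRU, 17172, 18533, 18303, 17201 and 16971 CPM in CD200+ non-MRU, and 23663, 27527, 17896, 22895 and 17735 CPM in CD200R1+ non-MRU. Every double-positive library lay above every CD200+ non-MRU library. The mean ratio of the mitochondrial to the nuclear sum was 1.55 ± 0.229 for double-positive MRU, 1.57 ± 0.206 for remaining MRU, 1.30 ± 0.109 for CD200+ non-MRU and 1.62 ± 0.438 for CD200R1+ non-MRU (SD, n = 5 each). The mitochondrial sums and this ratio rest on the 7 tested mitochondrial genes, as the 6 untested ones had 0 to 3 counts each.

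The high nuclear sum of mouse 6 was spread over the members. In double-positive MRU 70 of 79 tested nuclear members (88.6%) had their highest value in mouse 6, against 23.9% of all genes tested. In remaining MRU the share of members was 70.9% and that of all genes 21.8%. In CD200+ non-MRU these were 45.6% and 26.3%, and in CD200R1+ non-MRU 84.8% and 24.4%. The mitochondrial sum did not share this, and the ratio of the sums was lowest in mouse 6 in each population, down to 0.984 in CD200R1+ non-MRU. Mouse 6 also had the fewest genes detected in double-positive MRU, remaining MRU and CD200+ non-MRU, and the part of library quality was not tested.

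**Figure D2:**
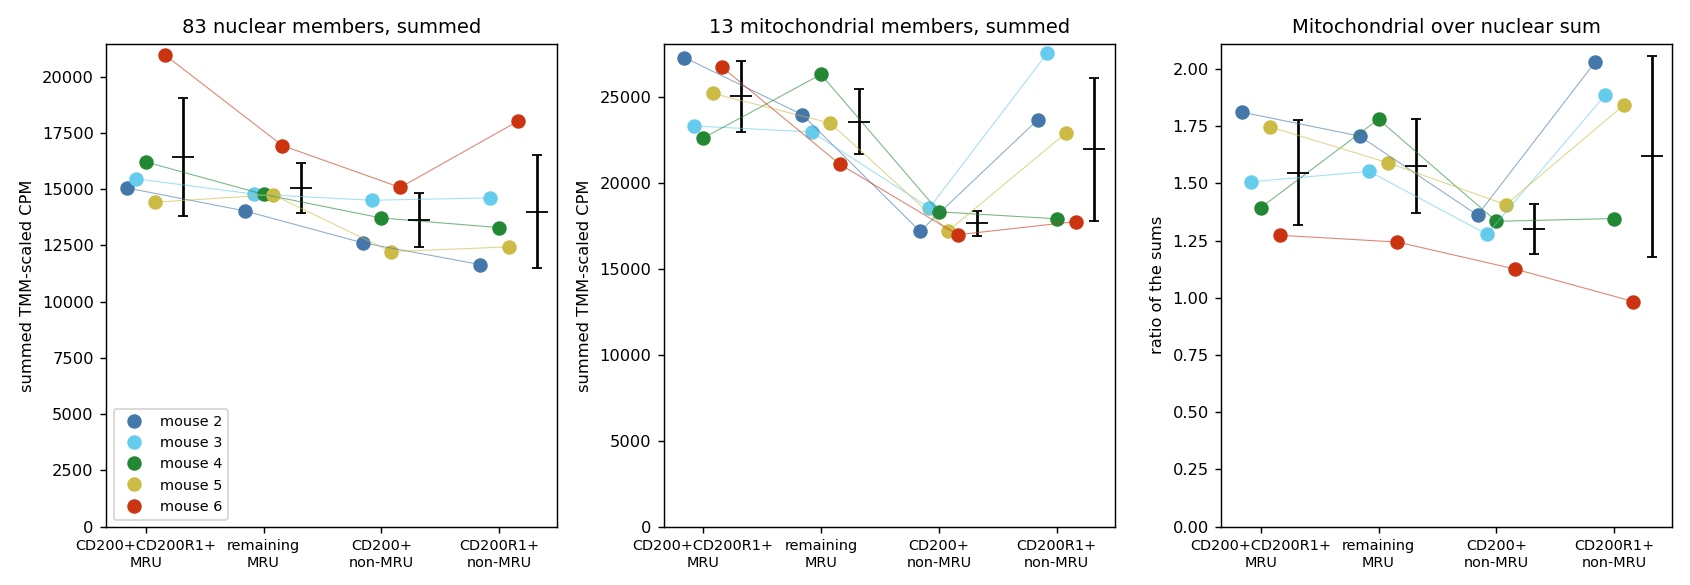
Summed TMM-scaled CPM of the nuclear members (left) and the mitochondrial members (middle) and their ratio (right) in each of the 20 libraries. The mitochondrial sums rest on the 7 tested genes. Points are libraries coloured and joined by mouse, bars show mean ± SD (n = 5), and mouse 6 is highest on the left and lowest on the right in every population.

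The comparison of double-positive MRU with CD200+ non-MRU, which sets the double-positive cells of the MRU gate beside CD200-positive cells outside it, held the broadest difference. Of 79 tested nuclear members 37 rose and 5 fell (46.8% and 6.33%), while 23.9% of all genes tested rose and 24.6% fell, 48.5% in all (edgeR quasi-likelihood test, adjusted p under 0.05). The median log2 fold change was 0.33 for the nuclear members and -0.03 for all genes. Libraries did not overlap for 29 higher and 2 lower members, 36.7% and 2.53%, against 18.7% and 18% of all genes. With the mouse as a block 45 rose and 7 fell, and without mouse 6 in any population 38 rose and 7 fell. Leaving out the double-positive library of mouse 5 gave 3 that fell.

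The shares that rose were alike in complexes I, III, IV and V, at 51.4%, 50%, 46.7% and 47.1%, and only complex II, with 4 members, had none. In complex I 18 of 35 members rose and 1 fell, in complex III 4 of 8 rose and 1 fell, in complex IV 7 of 15 rose and none fell, and in complex V 8 of 17 rose and 1 fell. In complex II none of 4 rose and 2 fell. The summed level of complex IV was 4470 ± 688 CPM in double-positive MRU and 3244 ± 354 CPM in CD200+ non-MRU (SD, n = 5 each), with no overlap, whereas that of complex II was 749 ± 122 CPM in double-positive MRU and 742 ± 38.9 CPM in CD200+ non-MRU. Within complex I, 17 of 28 accessory subunits and 1 of 7 core subunits rose, a division made after the values were seen.

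Ndufa11, which helps to hold complex I in its supercomplex, stood at 262, 251, 317, 225 and 419 CPM in double-positive MRU of mice 2 to 6, against 122, 146, 146, 114 and 152 CPM in CD200+ non-MRU. The groups did not overlap, and the fold was 2.17 (log2 SE 0.16, adjusted p = 1e-05). Cox6c, a complex IV subunit, stood at 307, 303, 310, 288 and 423 CPM in double-positive MRU against 165, 197, 167, 157 and 187 CPM in CD200+ non-MRU, 1.87-fold higher (log2 SE 0.13, adjusted p = 7.4e-06). The mouse 6 library was the highest double-positive library for both genes.

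Atp5k, the e subunit of complex V, stood at 67.5, 63.1, 84.1, 74.7 and 110.3 CPM in double-positive MRU against 41.6, 47.1, 40.1, 38.1 and 51.7 CPM in CD200+ non-MRU, 1.83-fold higher (log2 SE 0.16, adjusted p = 0.00013). Ndufa1, an accessory subunit of complex I encoded on the X chromosome, stood at 165, 161, 153, 154 and 239 CPM in double-positive MRU against 95.5, 118, 91.4, 89.9 and 105 CPM in CD200+ non-MRU, 1.75-fold higher (log2 SE 0.14, adjusted p = 8.3e-05). Other members that rose were Ndufs6, 1.74-fold, Uqcr11 of complex III, 1.67-fold, and Cox4i1, 1.41-fold.

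Sdha, which oxidises succinate, went the other way. It stood at 92.4, 89.1, 95.8, 82.8 and 88.0 CPM in double-positive MRU, against 126, 124, 132, 134 and 141 CPM in CD200+ non-MRU, with no overlap and a fold of 1.47 lower (log2 SE 0.11, adjusted p = 0.00043). Sdhd, a membrane anchor of complex II, averaged 121 ± 26.3 CPM in double-positive MRU and 156 ± 14.8 CPM in CD200+ non-MRU (SD, n = 5 each), 1.28-fold lower (adjusted p = 0.039 in edgeR). That call was lost in 9 of the 10 fits with a library removed, all but that without double-positive MRU of mouse 6, with adjusted p up to 0.213. Sdhb and Sdhc did not pass, at log2 fold changes of 0.21 and 0.28.

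Ndufv3, a small subunit of the NADH-binding arm of complex I, stood at 61.5, 67.8, 67.2, 62.8 and 86.9 CPM in double-positive MRU, against 87.4, 95.96, 92.9, 87.1 and 92.8 CPM in CD200+ non-MRU. It fell 1.32-fold (log2 SE 0.12, adjusted p = 0.0079), and the double-positive library of mouse 6 lay just below the lowest CD200+ non-MRU library. Leaving out the double-positive library of mouse 5 ended the call (adjusted p = 0.0513, and 0.00135 to 0.0726 over its alternatives in edgeR or DESeq2). Uqcrfs1, the Rieske iron-sulfur protein of complex III, fell 1.40-fold. Atp5sl fell 1.70-fold. For both genes the groups overlapped. The symbol pattern counts Atp5sl as a complex V gene, but it is now named Dmac2 and known for the assembly of complex I.

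Of the 7 tested mitochondrial members 5 rose (71.4%, against 23.9% of all genes). The complex I core subunit mt-Nd4, which shares sequence with copies, stood at 2583, 2399, 2281, 2958 and 2333 CPM in double-positive MRU, against 1054, 1165, 1097, 1089.8 and 1089 CPM in CD200+ non-MRU, 2.28-fold higher (log2 SE 0.14, adjusted p = 3.7e-07). The mt-Nd6, mt-Nd2, mt-Nd1 and mt-Cytb genes were 1.85-fold, 1.73-fold, 1.54-fold and 1.34-fold higher. Those groups did not overlap. The core complex IV subunit mt-Co1 averaged 4798 ± 552 CPM in double-positive MRU and 4233 ± 120 CPM in CD200+ non-MRU (SD, n = 5 each) and did not pass (adjusted p = 0.291), nor did mt-Nd5 (log2 fold change 0.28, adjusted p = 0.0902).

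**Figure D3:**
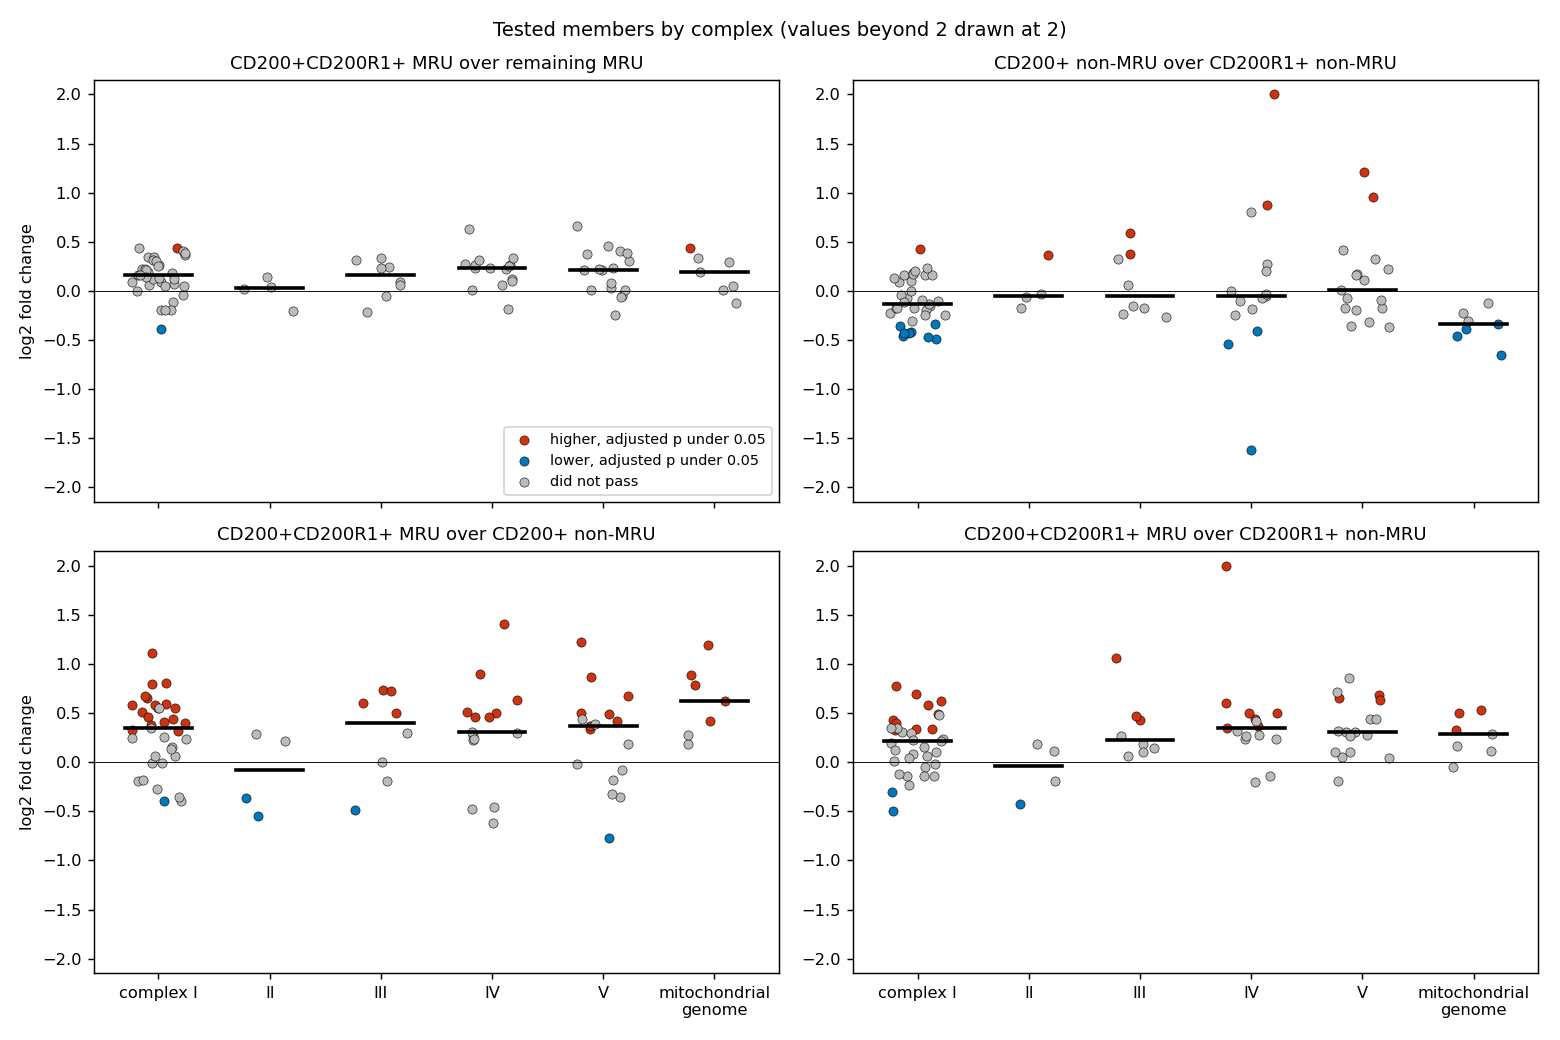
Log2 fold change of each tested member, by complex for the nuclear members and in a column of their own for the mitochondrial ones, in the 4 comparisons. Points are genes, coloured by call, black bars are medians, and red points are most frequent in double-positive MRU over CD200+ non-MRU, where 37 nuclear and 5 mitochondrial members rose.

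Members with short transcripts had the larger increases. In double-positive MRU over CD200+ non-MRU, 30 of 45 tested nuclear members with a principal transcript under 1000 bases rose and none fell, while 30.8% of the 844 coding genes of that length rose and 15.6% fell. Of the 25 members of at least 1000 and under 2000 bases 6 rose and 3 fell (24% and 12%), against 15.1% and 35.2% of coding genes of that length. Of the 9 longer ones 1 rose and 2 fell, against 27% and 24.7% of the longer coding genes. Spearman's rho between length and log2 fold change was -0.488 over the 79 members and 0.193 over 14182 coding genes. The points share libraries and scaling, so rho is a description. Coding genes under 1000 bases took 14.2% ± 0.676 of counts among double-positive MRU, 12.7% ± 0.498 among remaining MRU, 10.1% ± 0.662 among CD200+ non-MRU and 10.9% ± 0.680 among CD200R1+ non-MRU (SD, n = 5 each). The part of transcript length in the members' differences was not tested.

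**Figure D4:**
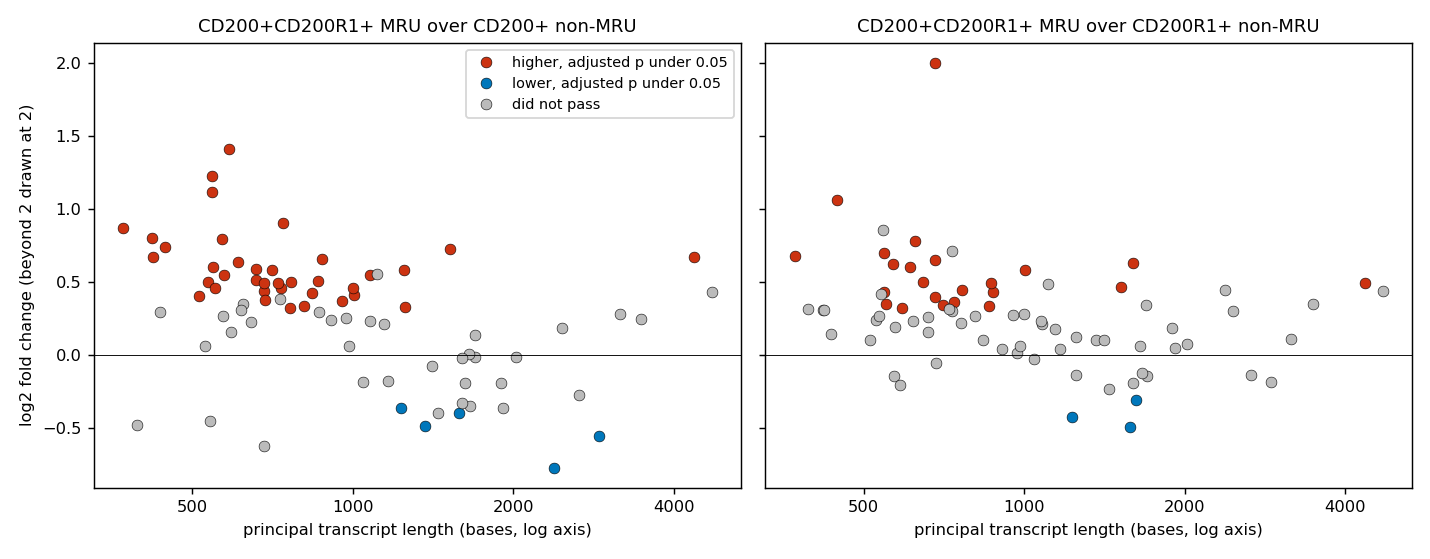
Log2 fold change of the 79 tested nuclear members against the length of their principal transcript (bases, log axis), for double-positive MRU over CD200+ non-MRU (left) and over CD200R1+ non-MRU (right). Points are genes coloured by call, and on the left none of the 45 members under 1000 bases fell.

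The comparison of double-positive MRU with CD200R1+ non-MRU, cells that are fibroblast-rich by their markers, had a smaller share of members that rose. Of 79 tested nuclear members 23 rose and 3 fell (29.1% and 3.80%), against 22.8% higher and 24% lower of all genes. The share that rose was thus near the background, and the share that fell was below it. Libraries did not overlap for 8 higher and 0 lower members, 10.1% and 0%, against 15.3% and 16% of all genes. Both shares without overlap were below those of all genes. The median log2 fold change was 0.27 against 0.01 for all genes. For the 45 members under 1000 bases it was 0.319, against 0.201 for the 844 coding genes of that length. The counts of called members depended on the scaling more than in the other comparisons with the MRU. CD200R1+ non-MRU libraries had TMM factors of 0.766 to 0.854, and with library totals alone the median of all genes moved to 0.43 and 64 nuclear members rose and none fell. With the mouse as a block 36 rose and 3 fell, and without CD200R1+ non-MRU of mouse 6, 39 rose and 1 fell. Leaving out the double-positive library of mouse 2, 3 or 5 also gave 1 that fell.

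Uqcr11, a small subunit of complex III, stood at 124, 120.1, 148, 125 and 209 CPM in double-positive MRU, against 58.8, 72.5, 62.4, 53.8 and 99.9 CPM in CD200R1+ non-MRU. The groups did not overlap, and the fold was 2.09 (log2 SE 0.17, adjusted p = 2.2e-05). Ndufb7, an accessory subunit of complex I, stood at 147, 167, 183, 170.4 and 229 CPM in double-positive MRU against 106, 99.2, 115, 73.1 and 128 CPM in CD200R1+ non-MRU, 1.72-fold higher (log2 SE 0.15, adjusted p = 0.00021). Ndufs6 was 1.54-fold higher, with 94.8, 95.0, 113, 103 and 144 CPM in double-positive MRU against 62.9, 70.7, 79.5, 58.3 and 85.8 CPM in CD200R1+ non-MRU (log2 SE 0.13, adjusted p = 0.00053).

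Atp5h and the complex IV subunit Cox5b were 1.57-fold and 1.41-fold higher in double-positive MRU than in CD200R1+ non-MRU, and both share at least 20% of their runs with copies. Among the members that fell were Ndufv3, 1.41-fold, and Sdhd, 1.34-fold, both with overlap between the groups. Sdhd lost its call in 4 of 10 fits, those lacking the mouse 2, 3 or 5 double-positive library or CD200R1+ non-MRU of mouse 6 (adjusted p 0.0527 to 0.103, and 0.00236 to 0.987 over its alternatives in edgeR or DESeq2). The mitochondrial mt-Nd4, mt-Nd6 and mt-Nd2 rose 1.45-fold, 1.42-fold and 1.26-fold. They were 3 of 7 tested (42.9%), against 22.8% of all genes. The call of mt-Nd2 was lost in 4 of the 10 fits, those lacking the mouse 2 double-positive library or CD200R1+ non-MRU of mouse 4, 5 or 6 (adjusted p up to 0.113).

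Between the non-MRU populations, CD200+ non-MRU and CD200R1+ non-MRU, members moved in both directions. Of 79 tested nuclear members 8 rose and 11 fell in CD200+ non-MRU (10.1% and 13.9%), against 23.8% and 28.6% of all genes, so fewer were called than over all genes in either direction. The median log2 fold change was -0.07, against -0.06 for all genes. With library totals alone the median of all genes moved to 0.37, and 42 members rose and 1 fell. Without CD200R1+ non-MRU of mouse 6, 17 rose and 4 fell. Leaving out CD200+ non-MRU of mouse 2 gave 5 that fell, and leaving out that of mouse 5 gave 6.

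Sdha rose in CD200+ non-MRU, where it stood at 126, 124, 132, 134 and 141 CPM, against 79.1, 109, 88.6, 104 and 129.7 CPM in CD200R1+ non-MRU. The groups overlapped through the CD200R1+ non-MRU library of mouse 6, and the fold was 1.29 (log2 SE 0.11, adjusted p = 0.010). Uqcrfs1 was 1.5-fold higher (256 ± 29.9 CPM in CD200+ non-MRU and 170.1 ± 7.75 CPM in CD200R1+ non-MRU, SD, n = 5 each, adjusted p = 0.00011 in edgeR) and Atp5sl 2.32-fold higher (adjusted p = 5.3e-05). Cox6c fell 1.45-fold, Ndufa13, known also as GRIM-19, fell 1.38-fold, and Ndufc2 fell 1.35-fold. With library totals alone none of Cox6c, Ndufa13 and Ndufc2 passed (adjusted p 0.428, 0.737 and 0.964), and Ndufc2 also did not pass without CD200R1+ non-MRU of mouse 6 (adjusted p = 0.0609).

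Of the 7 tested mitochondrial members none rose and 4 fell in CD200+ non-MRU (0% and 57.1%, against 23.8% and 28.6% of all genes). The mt-Nd4 gene stood at 1054, 1165, 1097, 1089.8 and 1089 CPM in CD200+ non-MRU against 2258, 1871, 1597, 1739 and 1194 CPM in CD200R1+ non-MRU, 1.58-fold lower with no overlap (log2 SE 0.13, adjusted p = 0.0003). The mt-Nd2, mt-Nd6 and mt-Nd1 genes were 1.37-fold, 1.31-fold and 1.26-fold lower. With library totals alone none of these 4 passed, and the log2 fold changes of mt-Nd6 and mt-Nd1 turned positive, at 0.03 and 0.09. The mt-Nd1 call was also lost without CD200+ non-MRU of mouse 2 or 5 or CD200R1+ non-MRU of mouse 3 (adjusted p up to 0.0946).

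Inside the MRU gate, few members were called between double-positive MRU and remaining MRU. Of 79 tested nuclear members 1 rose and 1 fell (1.27% each), against 1.62% and 6.64% of all genes, or 8.26% in either direction. The median log2 fold change was 0.18, against 0.02 for all genes, and 65 of the 79 values were positive. The share of positive values over all genes is not given here. For the 45 members under 1000 bases the median was 0.229, against 0.174 for the 844 coding genes of that length. With the mouse as a block 9 rose and 1 fell, and with DESeq2 7 rose and 1 fell. The shares of all genes in this paragraph belong to the edgeR fit without the block, not to these settings. Leaving out each library in turn gave 0 to 2 that rose and 0 to 1 that fell. Libraries did not overlap for 1 higher and 1 lower nuclear member (1.27% each), against 3.8% and 8.53% of all genes. Of the 7 tested mitochondrial members 6 had positive values, and 1, mt-Nd6, passed (14.3%, against 1.62% of all genes). Libraries did not overlap for 3 of the 7 (42.9%), mt-Nd2, mt-Nd4 and mt-Nd6, all higher in double-positive MRU.

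Ndufa3, an accessory subunit named after its value was seen, averaged 138 ± 29.2 CPM in double-positive MRU and 102 ± 9.72 CPM in remaining MRU (SD, n = 5 each), with a fold of 1.36 (adjusted p = 0.042 in edgeR), and lost its call in 7 of the 10 fits with a library removed, those lacking the double-positive library of mouse 4, 5 or 6, or the remaining MRU library of mouse 2, 3, 4 or 5 (adjusted p up to 0.122). The mitochondrial mt-Nd6 was 1.36-fold higher, at 818, 830, 878, 979 and 836 CPM in double-positive MRU and 615, 589, 727, 648 and 622 CPM in remaining MRU (adjusted p = 0.033 in edgeR). It lost its call in 6 of the 10 fits, those lacking the double-positive library of mouse 4 or 5, or the remaining MRU library of mouse 2, 3, 5 or 6 (adjusted p up to 0.0801).

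Some complex IV subunits have isoforms known from particular tissues. Cox6a2, the heart and skeletal muscle isoform of Cox6a1, stood at 3.52, 4.99, 4.53, 4.604 and 5.10 CPM in double-positive MRU, 5.09, 4.81, 1.49, 8.21 and 6.18 CPM in remaining MRU, 6.47, 2.93, 10.7, 5.00 and 9.87 CPM in CD200+ non-MRU, and 0.546, 0, 0.373, 0 and 0 CPM in CD200R1+ non-MRU. It was near 0 in the CD200R1+ non-MRU, which had 9 counts in all. The fold was 36.2 for CD200+ non-MRU over CD200R1+ non-MRU (log2 SE 0.66, adjusted p = 1.2e-06) and 23.6 for double-positive MRU over CD200R1+ non-MRU (log2 SE 0.66, adjusted p = 6.4e-06). Both folds rest on those 9 counts, with 3 of 5 CD200R1+ non-MRU libraries at 0, and depend on the library of mouse 2: without it the log2 fold changes were 6.005 and 5.39, in place of 5.18 and 4.56. Its ubiquitous counterpart Cox6a1 averaged 567 ± 107 CPM in double-positive MRU, 543 ± 57.1 CPM in remaining MRU, 470 ± 64.5 CPM in CD200+ non-MRU and 624 ± 121 CPM in CD200R1+ non-MRU (SD, n = 5 each). Skeletal muscle markers summed to 7.88 to 11.9 CPM in double-positive MRU, 8.89 to 11.7 CPM in remaining MRU, 5.38 to 8.60 CPM in CD200+ non-MRU and 5.84 to 80.8 CPM in CD200R1+ non-MRU.

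Cox6b2 stood at 16.1, 18.1, 24.98, 20.5 and 23.0 CPM in double-positive MRU, 16.1, 16.4, 12.4, 22.6 and 18.7 CPM in remaining MRU, 8.60, 10.3, 6.33, 5.96 and 7.42 CPM in CD200+ non-MRU, and 29.7, 32.6, 17.1, 23.1 and 15.96 CPM in CD200R1+ non-MRU. The CD200+ non-MRU lay below the other 3 populations without overlap. The fold was 2.66 for double-positive MRU over CD200+ non-MRU (log2 SE 0.22, adjusted p = 2.5e-05), and CD200+ non-MRU were 3.07-fold lower than CD200R1+ non-MRU (log2 SE 0.22, adjusted p = 3.5e-06). Its counterpart Cox6b1 did not pass in any of the 4 comparisons. Cox7a1, a heart and muscle isoform, averaged 1.64 ± 0.227 CPM in double-positive MRU, 1.06 ± 0.440 CPM in remaining MRU, 2.30 ± 0.656 CPM in CD200+ non-MRU and 1.31 ± 0.604 CPM in CD200R1+ non-MRU (SD, n = 5 each) and did not pass in any comparison. Cox8b, Cox8c and Cox7b2 had 62, 8 and 2 counts in the 20 libraries together.

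**Figure D5:**
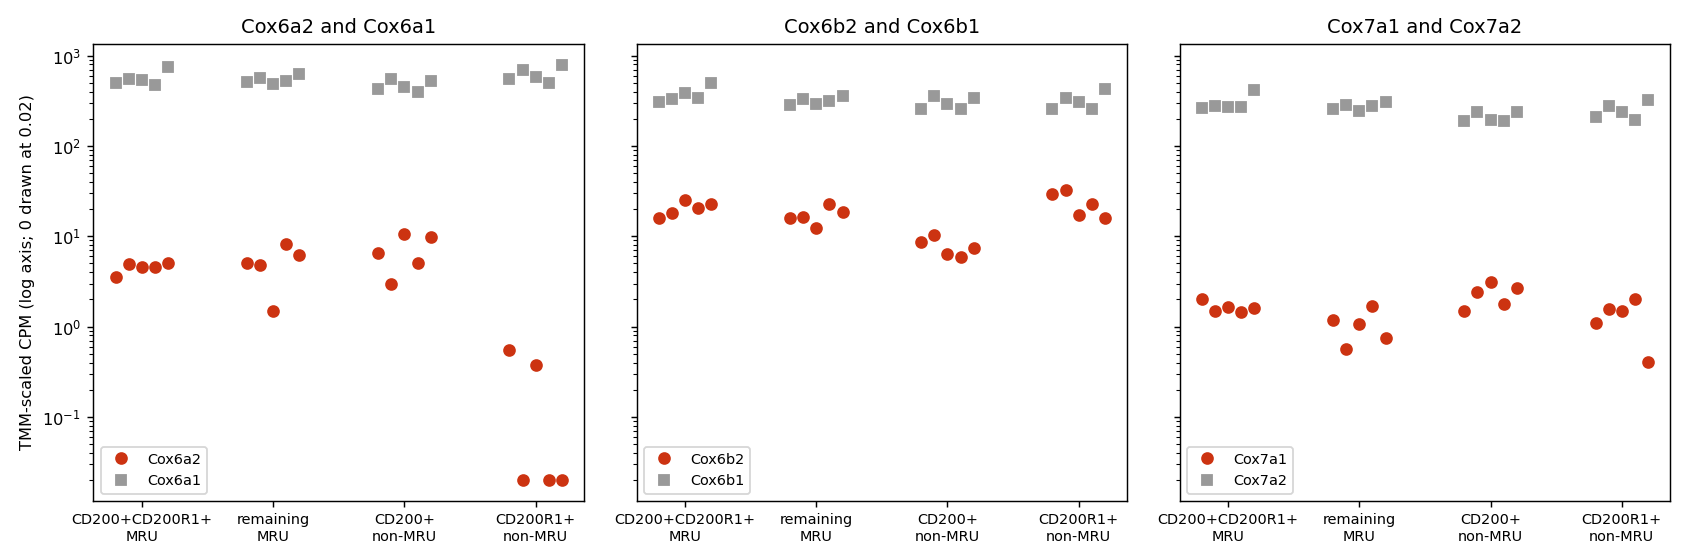
Level (TMM-scaled CPM, log axis) of 3 complex IV isoforms known from heart, muscle or testis (red) and of their ubiquitous counterparts (grey) in each library, by population, with mice 2 to 6 from left to right in each. Libraries at 0 are drawn at 0.02, and Cox6a2 is at or near 0 in CD200R1+ non-MRU.

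Genes around the complexes were counted from lists drawn up by function. Of 42 tested assembly factors 5 rose and 6 fell in double-positive MRU over CD200+ non-MRU (11.9% and 14.3%, against 23.9% and 24.6% of all genes), with a median log2 fold change of -0.15 where that of the subunits was 0.33. Sdhaf1, which inserts iron-sulfur clusters into complex II, fell 2.77-fold, with 12.7 ± 1.47 CPM in double-positive MRU and 35.1 ± 7.29 CPM in CD200+ non-MRU (SD, n = 5 each). Ndufaf2, a late complex I assembly factor, rose 1.65-fold. In double-positive MRU over CD200R1+ non-MRU 6 assembly factors rose and 3 fell (14.3% and 7.14%, against 22.8% and 24% of all genes). In CD200+ non-MRU over CD200R1+ non-MRU 10 rose and 5 fell (23.8% and 11.9%, against 23.8% and 28.6%). The share that rose there was that of all genes. In double-positive MRU over remaining MRU 1 rose and none fell (2.38% and 0%, against 1.62% and 6.64%). Sdhaf1 was 2.10-fold higher in double-positive MRU than in CD200R1+ non-MRU, and 5.81-fold higher in CD200+ non-MRU than in CD200R1+ non-MRU.

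Of 22 regulators of subunit genes and mitochondrial DNA, 4 rose and 5 fell in double-positive MRU over CD200+ non-MRU, 18.2% and 22.7% where 23.9% and 24.6% of all genes did. Tfam, which packages mitochondrial DNA and starts its transcription, fell 1.78-fold (36.6 ± 3.46 CPM in double-positive MRU and 65.2 ± 10.4 CPM in CD200+ non-MRU, SD, n = 5 each). Gabpb1, a subunit of GABP, fell 1.70-fold, while the PGC-1-related coactivator Pprc1 rose 1.82-fold and Yy1 rose 1.48-fold. In double-positive MRU over CD200R1+ non-MRU 7 rose and 1 fell (31.8% and 4.55%, against 22.8% and 24% of all genes). Among those that rose were the coactivators Ppargc1a, 5.53-fold to 2.52 ± 0.830 CPM, and Ppargc1b, 4.37-fold. In CD200+ non-MRU over CD200R1+ non-MRU 8 rose and 4 fell (36.4% and 18.2%, against 23.8% and 28.6% of all genes). In double-positive MRU over remaining MRU none rose and 1, Gabpb1, fell 1.74-fold (4.55% of the list, against 6.64% of all genes).

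Of 18 tested genes of pyruvate dehydrogenase and the tricarboxylic acid cycle, none rose in double-positive MRU over CD200+ non-MRU and 1, the dehydrogenase subunit Dld, fell 1.41-fold. These were 0% and 5.56% of the list, against 23.9% and 24.6% of all genes. In double-positive MRU over CD200R1+ non-MRU Idh3g rose 1.52-fold and Idh2 fell 2.08-fold (5.56% each, against 22.8% and 24% of all genes). None passed within the MRU gate, where 8.26% of all genes did. Of 20 glycolysis and lactate genes 3 rose and 4 fell in double-positive MRU over CD200+ non-MRU (15% and 20%, against 23.9% and 24.6% of all genes), and 7 rose and 4 fell over CD200R1+ non-MRU (35% and 20%, against 22.8% and 24%). Aldolase C (Aldoc) was 35.0-fold higher in double-positive MRU than in CD200R1+ non-MRU, at 29.0 ± 8.07 CPM in double-positive MRU and 0.833 ± 0.683 CPM in CD200R1+ non-MRU (SD, n = 5 each), and the phosphofructokinase Pfkl was 5.58-fold higher. Hexokinase 2 (Hk2) was 8.70-fold lower in double-positive MRU than in CD200R1+ non-MRU, at 80.9 ± 9.36 CPM in double-positive MRU and 704 ± 165 CPM in CD200R1+ non-MRU (SD, n = 5 each). Within the MRU gate Hk2 was 1.90-fold higher in double-positive MRU, and 1 gene, Pfkp, fell 1.43-fold (5% each, against 1.62% and 6.64% of all genes). Of 19 tested carriers and membrane proteins of mitochondria, 4 rose and 2 fell in double-positive MRU over CD200+ non-MRU (21.1% and 10.5%, against the same 23.9% and 24.6%). Slc25a4, an ADP/ATP carrier, rose 1.74-fold there, and Ucp2, an uncoupling protein family member, rose 2.04-fold in double-positive MRU over CD200R1+ non-MRU.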

How the data were processed

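Per the labels' protocols, lineage-depleted cells of the fourth inguinal glands were sorted, 1000 per library, and amplified with SMART-Seq V4. The submitters' processing notes list cutadapt, STAR 2.4.2a, HTSeq, DESeq2 and GRCm38. No source used here gives their parameters, strand setting or annotation release. The deposited values used were raw counts per gene, per the file headers; 20 columns of normalized values were not used.

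All 20 libraries entered an edgeR 4.0.16 fit (R 4.3.3, filterByExpr, TMM, glmQLFit, glmQLFTest) with the population as its term, and p-values were adjusted by Benjamini-Hochberg over 17236 genes at a threshold of 0.05. Folds are the model's, SE are on the log2 scale, and levels are TMM-scaled CPM. The fit was checked on simulated data. In 40 pairs of replicate libraries a chi-square of counts was 8.5 to 48.7 per gene, so each counted as 1 sample. Without molecular identifiers, the floor of 3 counts (0.216 to 0.276 CPM) covers counting error only.

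Equal mouse numbers mark the same animal per the labels. Deviations of 30 same-mouse pairs of libraries correlated at a mean of 0.0946 (0.00138 to 0.264), those of 120 other pairs at -0.0236. Alternatives were DESeq2 1.42.0, its size factors, library totals alone, no filter, the mitochondrial genome left out, the 10 libraries compared alone, the mouse as a block and each library left out. Shares of all genes called are those of the fit with the population as its term, and are not given for the alternatives. Leaving out mouse 6 and adding the counts of copies were chosen after seeing the data. Members and lists were chosen with earlier results of these data known.

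Genes named for size passed the threshold, had at least 10 CPM and no overlap, and were the 5 largest changes in each direction. Ndufs6, Uqcr11, Uqcrfs1, Atp5sl and Ndufv3 were named by this rule in 1 comparison and are also given in another. Cox4i1 was named outside the rule. All mitochondrial, tissue isoform and Sdh genes, and the 3 smallest adjusted p per list and direction, could also be named; 1 member is not reported here. Shared runs of 50 bases, lengths and overlaps came from the GENCODE annotation of GRCm38.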

Additional observations from a re-analysis of the deposited data

Results flagged for a closer look

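Over the sums and the members reported here, 18 of 164 sets of 5 libraries held a highest or lowest value far from the other 4. Chance gives about 1 in 20 for independent sets. All 18 of these were the highest value of mouse 6. The sets share the same 20 libraries and the sums contain the members, so the count cannot be weighed against 1 in 20. The nuclear sum of mouse 6 reached 20981 CPM in double-positive MRU (others 14424 to 16215) and 16940 CPM in remaining MRU (others 14038 to 14782). In double-positive MRU of mouse 6 the sums of complexes I, III and IV were 6613, 2286 and 5691 CPM. In that library Cox6a1 stood at 751 CPM, Cox6c at 423, Cox7a2 at 421, Cox7b at 349, Cox8a at 754, Ndufa1 at 239 and Ndufv3 at 86.9 CPM. In remaining MRU of mouse 6 Cox7b stood at 248 and Ndufs6 at 98.6 CPM, and in CD200+ non-MRU of mouse 6 Sdhd stood at 182 CPM. In CD200R1+ non-MRU of mouse 6 Atp5k stood at 70.1, Cox8a at 513 and Sdhd at 215 CPM.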

How the results depend on the processing

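With the replicate block (the mouse), 9 nuclear members rose in double-positive MRU over remaining MRU and 36 over CD200R1+ non-MRU, in place of 1 and 23, and it changed no other count by more than 1.5 times. With DESeq2 these counts were 7 and 36, and with DESeq2 size factors 2 rose over remaining MRU. With library totals alone, in CD200+ non-MRU over CD200R1+ non-MRU 42 nuclear and 1 mitochondrial members rose and 1 nuclear and 0 mitochondrial members fell, and the log2 fold changes of Cox6a1, mt-Nd1 and mt-Nd6 reversed to 0.01222, 0.09015 and 0.03104. In double-positive MRU over CD200R1+ non-MRU 64 nuclear and 7 mitochondrial members rose and 0 nuclear members fell, and over remaining MRU 0 nuclear members fell. The mean sums became 19069 (mitochondrial) in CD200+ non-MRU, and 17633 (mitochondrial) and 11283 (nuclear) CPM in CD200R1+ non-MRU, since the TMM factors were left out. Library totals without the mitochondrial genome gave mitochondrial sums of 28264 (double-positive MRU), 25755 (remaining MRU) and 19607 CPM (CD200+ non-MRU), and nuclear sums of 16468 (remaining MRU) and 15147 CPM (CD200+ non-MRU).

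With no filter, 6 nuclear and 2 mitochondrial members fell in CD200+ non-MRU over CD200R1+ non-MRU, 3 nuclear members fell in double-positive MRU over CD200+ non-MRU, and 0 members of either kind were called over remaining MRU. With the 10 libraries compared alone, 4 nuclear and 1 mitochondrial members fell between the non-MRU populations, 1 nuclear member fell in double-positive MRU over CD200R1+ non-MRU, and 3 nuclear and 2 mitochondrial members rose over remaining MRU. Without mouse 6 in every population 16 nuclear members rose between the non-MRU populations. The cause was not tested.

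Leaving out each library gave 0 to 2 nuclear members that rose and 0 to 1 that fell in double-positive MRU over remaining MRU, with 0 to 1 mitochondrial. It gave 32 to 42 and 3 to 5 nuclear over CD200+ non-MRU, with 5 to 6 mitochondrial that rose, and 17 to 39 and 1 to 4 over CD200R1+ non-MRU, with 2 to 4 mitochondrial. Between the non-MRU populations 6 to 17 nuclear members rose and 4 to 13 fell, with 3 to 5 mitochondrial that fell. The rise of the nuclear members in double-positive MRU over CD200+ non-MRU kept its count within 1.5 times under each of these settings. Depth limits members with near-identical copies, isoforms at few counts and any change within the spread of 5 mice.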
